A study of Mus musculus with 12 samples.

Results

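Lungs of prenatal offspring were compared with lungs of dams after gestation in cigarette smoke, over 6 of the 12 arrays of the series: 3 offspring smoke arrays and 3 dam smoke arrays, chosen by their titles. Per the labels all mice were female and of a strain written B6C6F1. Offspring smoke mice were prenatal, and dam smoke mice were mature and pregnant. During 18 days of gestation the dams spent 4 h a day, 5 days a week, in mainstream smoke from filtered 3R4F research cigarettes that had been diluted 1/50 with clean air. The offspring air and dam air groups, with 3 arrays each, were labelled as prenatal and as mature pregnant mice in filtered air, and they were used here as a second, separate set of offspring and dams. Each array was labelled a biological replicate. Whether offspring shared a litter or a dam is not stated in the labels, so the p-values cover only the spread among these arrays, which may be partly technical.

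The lung before birth is a fluid-filled organ whose airspaces are still dividing and thinning and whose alveolar epithelium is only beginning to make surfactant. The lung of an adult holds air, mature alveoli and resident immune cells. Smoke meets the airways of the dam directly, whereas its constituents reach the fetus through the maternal blood and the placenta. Some of them, such as polycyclic aromatic hydrocarbons, are ligands of the aryl hydrocarbon receptor, a transcription factor that switches on detoxifying enzymes. In whole lung RNA, fewer cells of a type and less RNA per cell cannot be told apart.

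Apart from 93 control rows, each row of the deposited table is a probe of an Agilent array, a short DNA strand that binds 1 transcript. The probe identifiers were not paired with genes in the tables used here (0 matches), so results are given by probe, no gene or cell type is named, and the tissue could not be checked against lung markers. Of 41174 probes, 28185 were tested, namely those above the background floor on at least 3 of the 12 arrays. Levels are given as a percentage of the array's own 75th percentile of probe intensity, and differences as log2 of the ratio, with values under the floor of 1.16% set to it. The labels do not settle which dye channel the values hold. They assign Cy5 to lung RNA and Cy3 to a universal mouse reference, and if the values were those of the reference the differences below would not be differences in lung RNA.

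The arrays differed in brightness. The 75th percentile of intensity was 917, 491 and 549 in offspring smoke replicates 1, 2 and 3, against 839, 1101 and 1019 in dam smoke. Between 64.6% and 67.3% of probes lay above the floor on each of the 12 arrays. Relative to that percentile, the median of 6 spike-in control probes stood at 3.50, 4.32 and 3.63 in offspring smoke, against 1.57, 1.82 and 2.86 in dam smoke. The groups did not overlap in this ratio, and the log2 difference of 0.917 had an exact permutation p of 0.1 (two-sided, n = 3 each), the smallest that 3 arrays against 3 allow.

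The first question was how far offspring and dam lungs differed in smoke. Limma called 12989 of 28185 probes at a Benjamini-Hochberg adjusted p under 0.05, or 46.1% of those tested. Of these, 7042 were higher in offspring smoke than in dam smoke and 5947 were lower, which are 25% and 21.1% of all probes tested. The 3 offspring smoke values lay all above or all below the 3 dam smoke values at 16872 probes, or 59.9%, with 9284 all above (32.9%) and 7588 all below (26.9%). Among the calls 12699 had groups that did not overlap and 290 had groups that did.

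Most of the differences were small. The median difference was 0.56 on the log2 scale among the higher calls, a 1.47-fold difference, and -0.76 among the lower calls, for which dam smoke was 1.70-fold above offspring smoke. Differences under 1.5-fold made up 44.3% of the calls. Large differences were mainly decreases: 389 calls were more than 2-fold higher in offspring smoke (1.38% of all tested) and 1833 were more than 2-fold lower (6.5%). Past 4-fold there were 13 increases (0.0461% of all tested) and 93 decreases (0.33%), and past 8-fold there were 2 increases and 13 decreases. The median SD per probe was 0.122 in offspring smoke and 0.153 in dam smoke on the log2 scale.

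The split between higher and lower calls depended on how the arrays were scaled. Higher probes made up 54.2% of the calls under the 75th percentile, 61.1% under median centring and 54.8% under quantile normalization. They made up 1.07% on unscaled arrays and 0.287% when the spike-ins set the scale. The median difference of all probes was 0.06 under the 75th percentile, 0.12 under median centring, 0.07 under quantile normalization, -0.54 on unscaled arrays and -0.81 under spike-in scaling. Over all 28185 probes, called or not, those more than 2-fold below that median outnumbered those more than 2-fold above it in each of the 5 scalings. Under the 75th percentile 340 probes lay above and 2154 below, and under spike-in scaling 385 lay above and 2225 below. Apart from quantile normalization (395 above and 2020 below), the scalings only shift each array by a constant. Counting from the median removes that shift, except at the floor, so the likeness of those counts was largely fixed in advance. The counts describe the arrays and carry no test.

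**Figure D1:**
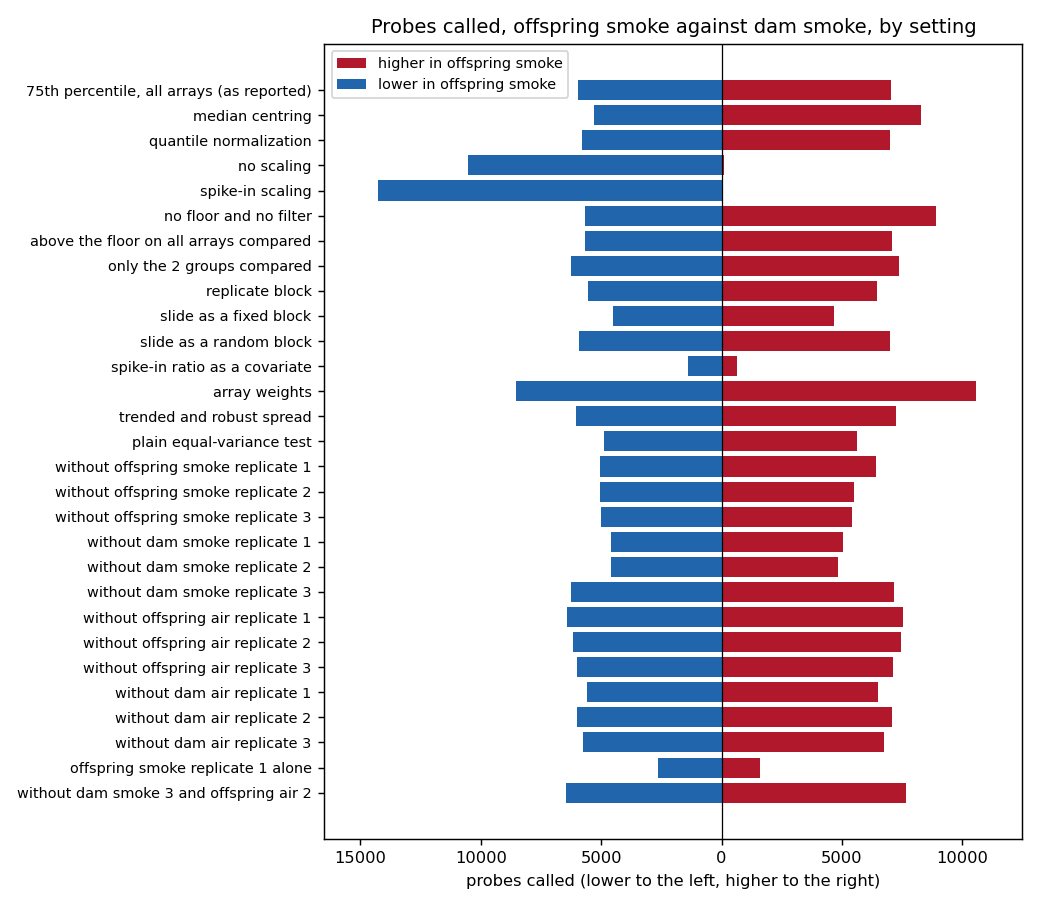
Number of probes called for offspring smoke against dam smoke under each setting, with probes higher in offspring smoke drawn to the right and lower ones to the left of 0. The 75th percentile gave 7042 higher and 5947 lower, spike-in scaling gave 41 higher among 14305 calls, and adding the spike-in ratio as covariate left 2054 calls.

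The largest increase among probes above the floor on all 6 smoke arrays was that of A_51_P281568, which measured 28.4%, 29.5% and 28.6% in offspring smoke, against 4.06%, 1.64% and 4.32% in dam smoke. All 3 offspring smoke arrays lay several-fold above every dam smoke array. The log2 difference was 3.23 (SE 0.48, limma adjusted p 0.000603). In air the same probe measured 0.86%, 4.09% and 3.49% in offspring and 2.81%, 4.99% and 2.62% in dams, so both air groups lay in the range of dam smoke or near it. On slide 1, the only slide that held both smoke groups, its log2 difference was 3.46.

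Probe A_51_P376445 measured 21.1%, 23.7% and 19.6% in offspring smoke, against 1.28%, 2.99% and 4.35% in dam smoke. Its log2 difference was 3.06 (SE 0.55, limma adjusted p 0.00149). The call was lost in the fit that held the spike-in ratio as covariate (log2 difference 2.16, adjusted p 0.118). In air its mean was 5.21 ± 0.291% for offspring and 6.20 ± 3.90% for dams (SD of 3 arrays), and these groups overlapped. Offspring smoke was thus above all 9 other arrays at both of these probes.

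The largest decrease among probes above the floor on all 6 smoke arrays was that of A_51_P238557, which measured 9.69%, 7.64% and 9.12% in offspring smoke, against 183%, 192% and 199% in dam smoke. Its log2 difference was -4.44 (SE 1.02, limma adjusted p 0.00528). The offspring air arrays read 9.93%, 65.9% and 0.187%, against 192%, 200% and 187% in dam air. Every offspring array was therefore below every dam array, but the offspring air arrays were spread over more than 2 orders of magnitude, and the air difference of -4.40, with offspring air replicate 3 set to the floor, was not called (adjusted p 0.0926). The smoke call was lost without the floor and its filter (limma adjusted p 0.0509). With the 2 smoke groups fitted alone, which leaves out the spread of the offspring air arrays, the limma adjusted p was 5.27e-05. With offspring smoke replicate 1 alone the log2 difference was -4.3.

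Probe A_52_P1054013 measured 4.28%, 4.10% and 5.45% in offspring smoke, against 82.2%, 24.8% and 112% in dam smoke. The smoke difference in log2 was -3.74 (SE 0.49, limma adjusted p 0.000358). Air arrays read 5.79%, 3.18% and 2.51% for offspring, against 6.01%, 8.46% and 4.48% for dams. Here dam smoke was the group apart from the 9 other arrays, and offspring smoke lay within the range of the air arrays. A like order was seen at A_51_P122752, chosen after its values were seen, which measured 20.3%, 23.4% and 25.1% in offspring smoke, against 245%, 83.6% and 316% in dam smoke. Its air levels were 18.6%, 19.4% and 13.2% in offspring and 27.8%, 34.7% and 24.2% in dams.

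**Figure D2:**
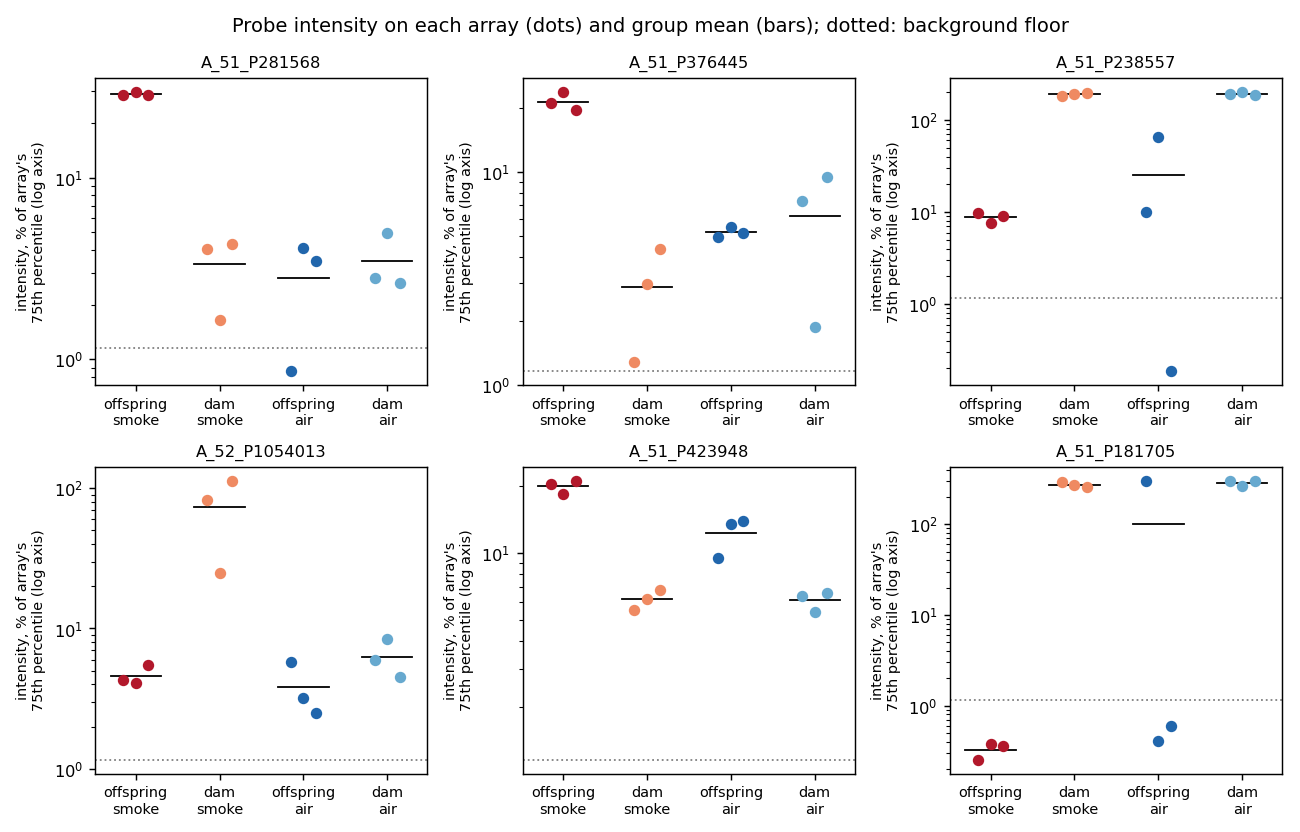
Intensity of 6 probes on each array as a percentage of the array's 75th percentile (log axis), with dots for arrays, bars for group means and a dotted line at the floor of 1.16%. Offspring smoke stands apart at A_51_P281568, dam smoke stands apart at A_52_P1054013, and at A_51_P181705 the 3 offspring smoke arrays and 2 of 3 offspring air arrays lie under the floor.

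Some probes were measured in only 1 of the smoke groups. The 3 offspring smoke arrays were above the floor and the 3 dam smoke arrays were not at 83 probes, and the reverse held at 198 probes. Of these 52 and 127 were called, against 46.1% of all probes tested, but such probes can enter the test through the group in which they are high, so nothing is read from these counts. For such probes the difference is a bound, because the dim group is set to the floor. The largest bounds were at least 3.08-fold higher in offspring smoke and at least 235-fold lower.

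The bound of at least 235-fold belonged to A_51_P181705, which was chosen after its values were seen. It read 0.253%, 0.374% and 0.358% in offspring smoke, under the floor, against 296%, 271% and 257% in dam smoke, with an adjusted p of 0.00299 in limma. In offspring air it read 300%, 0.404% and 0.597%, against 297%, 266% and 300% in dam air. Offspring air replicate 1 was thus as bright as the dams, and the other two offspring air arrays were as dark as offspring smoke. Probe A_52_P267391, chosen in the same way, read 0.545%, 0.955% and 0.414% in offspring smoke, against 254%, 209% and 251% in dam smoke, which is at least 204-fold lower (limma adjusted p 0.00241). In air it read 204%, 0.705% and 0.952% in offspring, against 219%, 179% and 226% in dams, so again offspring air replicate 1 stood with the dams. These 2 probes divide the offspring air arrays among themselves, so their levels do not follow stage alone. What they target is not known here, the labels give all mice as female and give nothing that sets offspring air replicate 1 apart, and the cause of the split was not tested. In the fit with the spike-in covariate the adjusted p was 0.0912 and 0.0775 for these probes, and with offspring smoke replicate 1 alone it was 0.0679 and 0.0603. In all, 7 probes were more than 3-fold brighter on the 6 dam arrays and offspring air replicate 1 than on the other 5 arrays, and 0 showed the reverse by that margin.

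The next question was which group lay apart where the smoke groups differed. All 3 offspring smoke values lay outside the range of the 9 other arrays at 10654 of the 12989 called probes, or 82.0%, and at 43.2% of all probes tested. Of those called, 5681 lay above and 4973 below. Dam smoke lay outside the 9 other arrays at 194 called probes, or 1.49%, and at 0.88% of all tested. Over all tested probes, offspring air lay outside its 9 others at 4.97% and dam air at 1.64%. By a margin of more than 2-fold, offspring smoke was above all 9 other arrays at 28 probes and below them at 254. The largest such margins were 5.70-fold above and 8.36-fold below. Dam smoke was more than 1.5-fold above all 9 others at 6 probes and below them by that margin at 0.

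The arrays were then placed along the line that runs from the dam smoke mean, at 0, to the offspring smoke mean, at 1, over all 28185 probes, with each smoke array left out of the means it was set against. Offspring smoke arrays stood at 0.873, 0.968 and 0.958, and dam smoke arrays at -0.105, -0.0953 and 0.381. Dam smoke replicate 3 was thus displaced towards offspring smoke. Offspring air arrays stood at -0.0445, 0.204 and -0.0728, and dam air arrays at -0.0514, -0.0106 and -0.0871. Dam smoke replicate 3 and offspring air replicate 2, the arrays displaced most, also had the highest spike-in ratios of their groups, at 2.86 and 3.24, and the part of this ratio in their position was not tested. With dam smoke replicate 3 left out limma called 13407 probes.

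**Figure D3:**
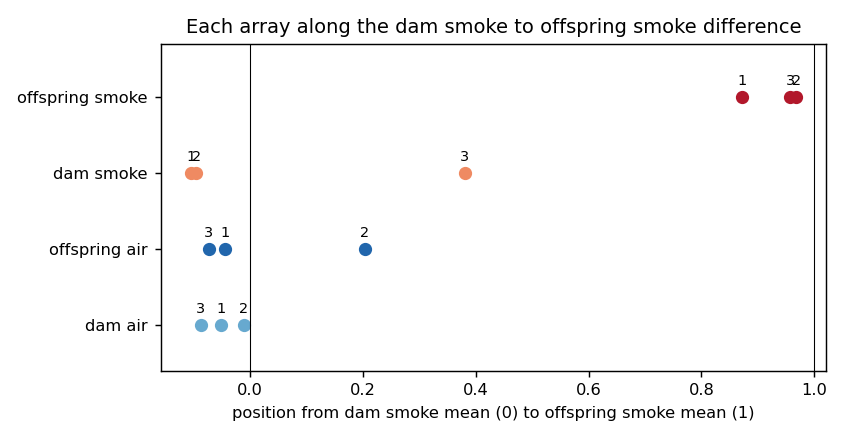
Position of each of the 12 arrays along the line from the dam smoke mean (0) to the offspring smoke mean (1), with replicate numbers above the points. The 3 offspring smoke arrays lie between 0.873 and 0.968, dam smoke replicate 3 lies at 0.381, and offspring air replicate 2 lies at 0.204.

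Array correlations were also taken. The median Pearson correlation across probes was 0.996 among offspring smoke arrays, 0.993 among dam smoke arrays and 0.977 between an offspring smoke and a dam smoke array. Arrays of offspring in air and dams in air correlated at a median of 0.988, against 0.987 among offspring air arrays and 0.994 among dam air arrays. Offspring air was the most spread of the 4 groups, with a median SD per probe of 0.204, against 0.128 in dam air. Dam smoke replicates 1, 2 and 3 correlated with the offspring smoke arrays at medians of 0.974, 0.975 and 0.986. Probes are not independent replicates, and these values describe the arrays alone.

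Slide 1 held offspring smoke replicate 1 and dam smoke replicates 1 and 2, and the other smoke arrays lay on slides with 1 of the smoke groups each. The difference within slide 1 could therefore be set against the difference of the remaining 3 smoke arrays, which share no sample with it. Across 28185 probes the 2 differences correlated at r = 0.756 and had the same sign at 81.1% of probes. In the remaining arrays the dam side is dam smoke replicate 3 alone, the array displaced towards offspring smoke. It lay on another slide than the offspring smoke arrays it was set against, so stage and slide cannot be told apart there. The median absolute difference was 0.42 on the log2 scale within slide 1 and 0.31 in the remaining arrays. Slide as a fixed block left 9169 calls, of which 97.7% were also called with the same sign without the block. Since the arrays and values are the same with and without the block, this overlap is no separate support.

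The spike-in ratio moved with the groups, and adding it to the fit lowered the count to 2054 calls, of which 651 were higher. Of the 2054 calls, 98% had been called with the same sign without it. Both fits use the same arrays and values, so a high overlap is no separate support. Over the 12989 calls the difference kept its sign at 99.6% of probes, and the median share of the difference that remained was 0.692. Offspring smoke replicate 1, the offspring smoke array of usual brightness, gave 4251 calls when set alone against dam smoke, with its spread assumed to equal that of the other groups.

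Calls were more frequent among bright probes, as seen when the probes were ranked by mean level and cut into 4 bands of equal size. In the dimmest band, with mean levels of 1.17% to 6.77% of the 75th percentile, 1830 of 7047 probes were called, or 26.0%, with 781 higher and 1049 lower in offspring smoke. In the brightest band, above 209%, 4329 of 7046 were called, or 61.4%, with 2826 higher and 1503 lower. Even there, the calls beyond 2-fold were mostly decreases, with 49 higher and 344 lower. Median differences ran from -0.02 for the dimmest band to 0.21 for the brightest. Within slide 1 these medians were -0.10 and 0.20. In the remaining 3 smoke arrays they were 0.02 and 0.14, and for offspring air against dam air they were 0.04 and 0.01. With quantile normalization, which equalises the arrays at every brightness, the medians were 0.04 and 0.08.

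**Figure D4:**
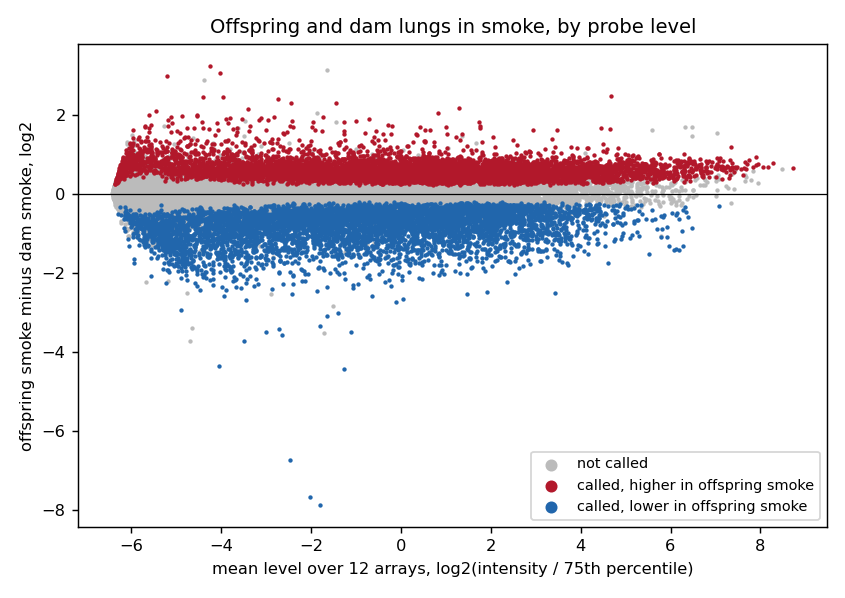
Offspring smoke minus dam smoke on the log2 scale (vertical axis) against the mean level over 12 arrays (horizontal axis, log2 of intensity over the 75th percentile), 1 dot per tested probe. The 1833 decreases beyond 2-fold extend further from 0 than the 389 increases, and the 3 lowest probes lie under -6.

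The same stage contrast was then taken in filtered air. Its group means came from arrays other than those of the smoke contrast. The spread behind the calls of both contrasts was pooled over all 12 arrays, so the calls are not independent. Limma called 43 probes, or 0.153% of those tested, 12 higher (0.0426%) and 31 lower (0.11%) in offspring air than in dam air. On unscaled arrays 13 of 88 calls were higher, and under spike-in scaling 0 of 168 were. An unadjusted p under 0.05 was found at 4524 probes in air, against 15232 in smoke. The air groups did not overlap at 17.2% of probes. The median absolute difference over all probes was 0.16 on the log2 scale in air and 0.39 in smoke. Across probes the smoke and air differences correlated at r = 0.145. Of the 12989 smoke calls, 61.1% had the same sign in air, against 55.3% of all probes, and their median absolute air difference was 0.14. The air count itself was not stable, as limma called 0 probes without dam air replicate 1 or 3 (2563 and 3063 with an unadjusted p under 0.05), 1233 without offspring air replicate 1 and 476 without dam air replicate 2.

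**Figure D5:**
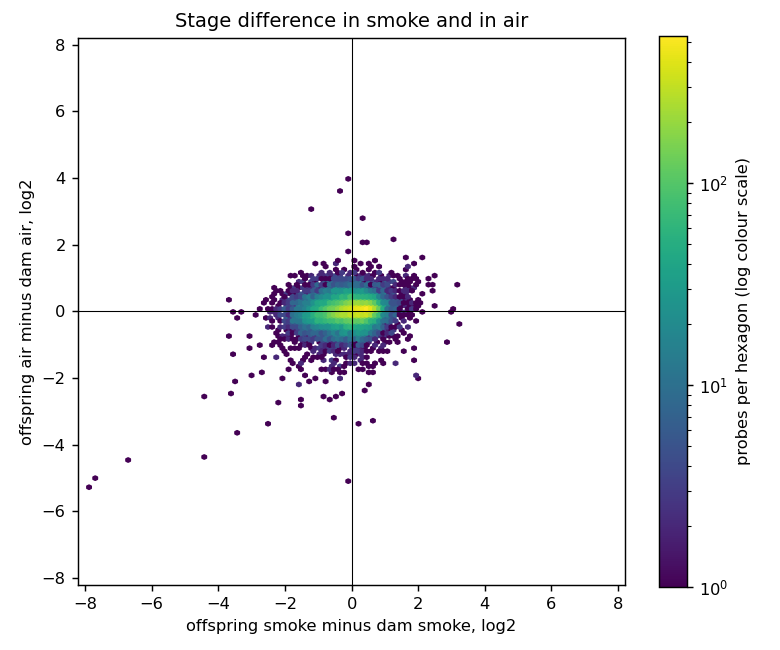
Offspring minus dam difference in smoke (horizontal axis) and in air (vertical axis), both on the log2 scale, with colour for the number of probes per hexagon (log scale). The cloud is wider along the smoke axis, with a median absolute difference of 0.39 against 0.16 in air, and a few probes at the lower left are lower in offspring in both.

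A small set separated offspring from dams in both air and smoke. All 6 offspring arrays lay above all 6 dam arrays at 383 probes and below them at 344, or 1.36% and 1.22% of those tested. A split that does not follow stage was also counted, and it was chosen after the values were seen. In it the 6 dams and offspring air replicate 1 lay above the other 5 arrays at 702 probes (2.49%) and below them at 731 (2.59%). Other splits of this size were not counted, so its frequency is not ranked against that of the stage split. Both contrasts were called with the same sign at 22 probes, 5 higher and 17 lower in offspring, or 0.0781% of those tested. With the replicate number or the slide as a fixed block, limma called 0 probes in air, so under either block no probe was called in both (3953 and 3181 had an unadjusted p under 0.05 in air). The air and smoke calls shared 26 probes in all, which are 60.5% of the air calls and 0.2% of the smoke calls. Among all probes tested, 46.1% were called in smoke and 0.153% in air. Because both contrasts used the same pooled spread, their calls are not independent, and the overlap is not read as agreement between them.

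Among these shared calls, A_51_P423948 measured 20.5%, 18.5% and 21.1% in offspring smoke, against 5.50%, 6.21% and 6.77% in dam smoke. In air it measured 9.49%, 13.5% and 14.0% in offspring, against 6.36%, 5.41% and 6.62% in dams. All 6 offspring arrays were above all 6 dam arrays, with log2 differences of 1.71 in smoke and 0.99 in air and adjusted p of 0.000153 and 0.0339 in limma. Probe A_52_P118638 averaged 37.6 ± 3.04% in offspring smoke and 17.0 ± 2.10% in dam smoke. In air the mean was 30.7 ± 4.25% for offspring and 14.6 ± 0.922% for dams (SD of 3 arrays throughout). Its log2 differences were 1.15 and 1.07, and the difference between them had an adjusted p of 0.77 in limma. The smoke call of this probe was lost without scaling (log2 difference 0.505, adjusted p 0.188) and with spike-in scaling (0.231, adjusted p 0.541).

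Lower in offspring in both conditions was A_51_P311235, at 8.51%, 9.27% and 6.57% in offspring smoke, against 92.8%, 46.7% and 147% in dam smoke. It read 3.10%, 4.27% and 0.312% in offspring air, against 31.6%, 43.4% and 22.6% in dam air. The log2 differences were -3.42 in smoke and -3.66 in air, with adjusted p of 0.000522 and 0.0208 in limma. The air value takes offspring air replicate 3 at the floor, since it read below it, and so is a bound that is not compared with the smoke value. Probe A_51_P259603 averaged 9.50 ± 0.827% in offspring smoke and 20.4 ± 3.12% in dam smoke. In air the mean was 9.35 ± 1.48% for offspring and 21.5 ± 2.32% for dams (SD of 3 arrays throughout), so its levels in smoke and in air were close within each stage.

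The 4 probes named for the air contrast did not all differ in smoke. Probe A_51_P428708 measured 115%, 134% and 121% in offspring smoke, against 238%, 248% and 194% in dam smoke. In air the mean was 51.9 ± 31.0% for offspring and 278 ± 7.63% for dams (SD of 3 arrays throughout). Its log2 difference was -0.88 in smoke and -2.58 in air, both called in limma (adjusted p 0.035 and 0.0155). The air call was lost with the replicate block (adjusted p 0.0566), with slide as a fixed block (0.186) and with the 2 air groups alone (0.244), and the air calls of the other 3 probes were lost in the same fits. Probe A_51_P259638 averaged 2.41 ± 0.372% in offspring smoke and 2.26 ± 0.127% in dam smoke. In air the mean was 5.49 ± 1.18% for offspring and 2.16 ± 0.246% for dams (SD of 3 arrays throughout). Its smoke difference of 0.08 was not called (adjusted p 0.714 in limma). Probe A_52_P378959 had a log2 difference of 0.33 in smoke (adjusted p 0.197 in limma) and -1.46 in air, and A_52_P118638 is described above.

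Whether the offspring to dam difference itself differed between smoke and air was tested as an interaction. It was called at 6687 probes, or 23.7% of those tested, 3085 with a more positive (10.9%) and 3602 with a more negative difference in smoke (12.8%). This split depended on the scaling, with 63 more positive of 5805 calls on unscaled arrays and 16 of 298 under spike-in scaling. Of the 6687 probes, 89.5% were also called in smoke, which is 46.1% of the smoke calls. At 2670 shared probes both the smoke difference and the interaction were positive, at 3312 both were negative, and at 1 they were opposite. The median air difference was -0.05 in the first set and 0.05 in the second. Because the interaction is the smoke difference minus the air difference, this overlap, these signs and these air medians were largely fixed in advance. Nothing further is read from them. Without dam smoke replicate 1 or 2 the count was 3236 or 3074, without dam air replicate 1 or 3 it was 3246 or 4347, without offspring smoke replicate 2 or 3 it was 4151 or 3918, and without offspring air replicate 3 it was 4353. Slide as a fixed block left 42 calls.

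The smallest interaction p among the probes above the floor on all 12 arrays belonged to A_51_P508781, at 4.89%, 5.20% and 4.66% in offspring smoke, against 44.4%, 54.2% and 53.3% in dam smoke. Its smoke difference was -3.36 (SE 0.14, limma adjusted p 1.47e-06), and its air difference was 0.02. Probe A_52_P679101 measured 202%, 189% and 192% in offspring smoke, against 852%, 706% and 614% in dam smoke, a log2 difference of -1.88. In air it was higher in offspring, at 1563%, 1107% and 1450%, against 717%, 933% and 723% in dams, although the air difference of 0.79 was not called (adjusted p 0.0696 in limma).

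Positive interactions with the smallest p were found at A_51_P137604 and A_51_P196663. Probe A_51_P137604 measured 24.6%, 27.4% and 23.7% in offspring smoke, against 8.61%, 10.7% and 9.73% in dam smoke, a log2 difference of 1.38. Its air groups were reversed without a call, at 13.9%, 11.6% and 11.5% in offspring air, against 17.7%, 15.5% and 16.9% in dam air (log2 difference -0.44, adjusted p 0.125 in limma). Probe A_51_P196663 had log2 differences of 0.89 in smoke and -0.68 in air, both called, with adjusted p of 0.000214 and 0.0315 in limma. Its interaction was not called without scaling (adjusted p 0.109) or with spike-in scaling (adjusted p 0.18), and that of A_51_P137604 was not called with spike-in scaling (adjusted p 0.117).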

How the data were processed

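Per the labels' protocols, lung RNA was extracted with RNeasy kits, amplified and labelled for Agilent arrays. The deposited table holds linear, single-channel intensity values for 41267 rows on 12 arrays, with 0 missing, and the authors' background treatment, software and channel are not given in the sources used here. Of the rows, 93 were controls. Values of each array were scaled to the 75th percentile of its 41174 probes, floored at the highest scaled background of any array (the 95th percentile of 50 control rows read as having no target), and converted to log2. A probe was tested if 3 or more arrays exceeded this floor.

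Differences were fitted with limma 3.58.1 under R 4.3.3 (lmFit with 1 mean per group over all 12 arrays, eBayes, 8 residual degrees of freedom, two-sided) and called where the p adjusted by Benjamini-Hochberg was under 0.05. On simulated data with 28185 probes, this comparison called 75 of 100 probes changed by 1 log2 unit and 100 of 100 changed by 2. It made 6 false calls, under noise independent between probes. Only 200 probes were changed there, whereas 46.1% were called in smoke, so these rates need not hold for the smoke arrays. Groups and replicate numbers came from titles and slides from the scan names. The alternatives were scaling, floor, samples in the fit, blocks, spread, test and leaving out arrays. The number of arrays limits the precision.

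Named probes were the 2 largest differences each way among calls with groups that did not overlap and that were above the floor on every array compared, for smoke and for air. For the interaction they were the 2 smallest p each way, and for probes called in both smoke and air with the same sign they were the 2 largest smoke differences each way. The members and rules were chosen with earlier results of these data known. The gene and cell type lists drawn up for the series were not tested, because probes could not be named.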

Additional observations from a re-analysis of the deposited data

Results flagged for a closer look

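The difference between offspring and dams was not the same in smoke and in air at 6687 probes, by a test of the difference itself in limma. Among them, the log2 difference in smoke minus that in air was 1.82 for A_51_P137604, 1.57 for A_51_P196663, -3.38 for A_51_P508781 and -2.67 for A_52_P679101. Under slide as a fixed block the test called 42 probes.

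A signal outside the comparisons was the ratio of the spike-in control probes to the 75th percentile, which in offspring smoke exceeded dam smoke by 0.917 on the log2 scale. The ratio averaged 3.82 ± 0.443 in offspring smoke and 2.08 ± 0.682 in dam smoke. In air the mean was 2.39 ± 0.810 for offspring and 1.74 ± 0.159 for dams (SD of 3 arrays throughout). The exact permutation p of offspring against dams was 0.1 in smoke and 0.4 in air (two-sided, n = 3 each). Its part in the differences was not tested beyond the covariate fit given above.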

How the results depend on the processing

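The count of 12989 calls in smoke stayed within 1.5 times under all but 2 of its 28 alternatives, namely 2054 calls when the spike-in ratio was a covariate and 4251 with offspring smoke replicate 1 alone, an alternative added after seeing the data that has fewer arrays. Leaving out 1 array gave 9456 to 13972 calls. A like count did not mean the same probes. Of the 12989 calls, 46.6% were called again with the same sign without scaling and 46.1% with spike-in scaling. That figure was 94.9% with median centring and 89.9% with quantile normalization. The share of higher calls, 54.2%, was 61.1% with median centring and also without the floor and filter, 1.07% without scaling, 0.287% with spike-in scaling, 55.5% with probes above the floor on all arrays, 51% with slide as a fixed block, 31.7% with the covariate, 55.3% with array weights, 37.7% with offspring smoke replicate 1 alone, and 51.3% to 56% with 1 array left out. The share of probes whose groups did not overlap, 59.9%, was 62.6% with median centring, 37.1% without scaling, 64.4% with spike-in scaling, 64% with probes above the floor on all arrays, 70.5% with dam smoke replicate 3 and offspring air replicate 2 left out, and 59.9% to 70.5% with 1 array left out, where fewer arrays make separation easier. The air count of 43 was 88 without scaling, 168 with spike-in scaling, 0 without floor and filter, 1 with the 2 groups alone, 0 with slide as a fixed block, 123 with the covariate, 2844 with array weights, 145 with a trended robust spread, 1 with the plain equal-variance test, 76 without both displaced arrays, and 0 to 1233 with 1 array left out. The interaction count of 6687 was 298 with spike-in scaling, 4215 without floor and filter, 42 with slide as a fixed block, 3410 with the covariate, 14585 with array weights (whose estimate stopped short of its tolerance), 10833 without both displaced arrays, and 3074 to 8920 with 1 array left out. The spike-in difference ran from 0.739 to 1.17 with 1 array left out. The cause of these shifts was not tested.

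Deviations of same-numbered offspring and dam smoke arrays from their group means correlated at 0.107, -0.0172 and -0.0516. Differently numbered pairs ran from -0.169 to 0.154. With 3 arrays per group these values cannot show whether same-numbered arrays were related, and the labels do not state it. The replicate block gave 12009 calls in smoke, of which 53.9% were higher, 4674 interaction calls and 0 air calls. In limma, 4578, 3181 and 3953 probes had an unadjusted p under 0.05 in air without floor and filter, with the slide block and with the replicate block. Of the named probes none changed direction in any alternative; the 4 named in air lost their call in 7 to 12 of 27, and A_51_P196663 in 2 of 25.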

Other observations

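Of the 50 control rows read as having no target, the row AT_W_M lay above the floor on every array. It read 15.1, 12.3 and 17.6 intensity units in offspring smoke, against 50.2, 55.5 and 30.3 in dam smoke. It read 39.2, 62.2 and 50.9 in offspring air, against 37.0, 44.0 and 64.8 in dam air. The offspring smoke arrays were the lowest of the 12. Scaled to the 75th percentile, offspring smoke read 1.65%, 2.50% and 3.21% and dam smoke 5.98%, 5.04% and 2.97%, so the smoke groups overlapped, through dam smoke replicate 3. The labels do not say what this row targets.

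The control rows AT_ssM_AB_3 and AT_ssM_AB_5 differ in name by their last digit. Their ratio was 5.39, 7.03 and 7.03 in offspring smoke, against 5.80, 4.37 and 4.59 in dam smoke. It was 6.17, 7.46 and 5.46 in offspring air, against 4.90, 5.60 and 5.49 in dam air. The ratio overlapped between the smoke groups, and the meaning of the digit was not stated in the labels.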
